A study of Mus musculus with 16 samples.

Results

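Cell cycle and mitosis genes were followed in mouse hearts as a set of 53 listed genes, of which 16 act in DNA replication or its onset, 33 act in mitosis or cytokinesis, and 4 (Mki67, Top2a, Ccna2 and Melk) mark or serve both. Each gene was matched by symbol to the probes of the array through the probes' RefSeq accessions, and the brightest probe by mean over all arrays was used. A probe was matched for 51 of the 53 members, the exceptions being Rrm2, the small subunit of ribonucleotide reductase, and Prc1, the crosslinker of the central spindle. Of the 51, 50 were bright enough to be tested, among 20055 genes tested in all. Ttk, the MPS1 checkpoint kinase, was well above background on 2 of 16 arrays and was not tested.

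The study hybridised Cy3-labelled RNA from whole hearts of 16 male C57BL/6 mice to 1-colour Agilent arrays, with 4 mice in each of 4 groups. The flox groups, aged 1 month or 2 months, carried the floxed MR allele (MR is the mineralocorticoid receptor, gene symbol Nr3c2) and no Cre, and were littermates of the cardioMRKO mice. The cardioMRKO groups, also aged 1 month or 2 months, carried the same floxed allele and the αMHC-Cre transgene, which is expressed in cardiomyocytes. The floxed allele was thus shared by all 4 groups, and since no mouse carried Cre without the floxed allele, Cre and loss of MR cannot be told apart. Each of the 4 groups filled a different slide, so a slide effect and a group effect cannot be told apart here. Per the study's design text, the 4 samples of a group came from 4 different mice. RNA came from all cell types of the heart, and in such bulk samples fewer dividing cells and less RNA per dividing cell cannot be told apart.

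Before a cell copies its DNA, the MCM2-7 helicase is loaded at replication origins with the help of CDC6 and CDT1, and E2F factors and cyclin E drive entry into S phase. Mitosis then needs CDK1 with cyclin B, the Aurora and Polo kinases, kinetochores, spindle motors and, last, the cytokinesis machinery. Most cardiomyocytes stop dividing soon after birth, while endothelial, stromal and immune cells of the heart keep some capacity to divide. Replication genes are known targets of E2F through its binding site, whereas many mitosis genes are silenced in resting cells and switched on late in the cycle through a cell cycle homology region, or CHR, often with CCAAT boxes nearby.

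The promoters of the 2 classes differed in these motifs. A RefSeq promoter entry (GRCm38.p6, 250 bases before to 50 bases after the gene's start) was held for 44 of the 53 members, and not for Ska1, Pimreg, Kif20a, Ccne2, Mcm4, Foxm1, Aurkb, Tpx2 and Ccna2. An E2F site, searched as TTTCCCGC, TTTCGCGC, TTTGCCGC or TTTGGCGC on either strand, was present in 7 of 14 replication promoters (50%), namely those of Mcm3, Mcm5, Mcm6, Mcm7, Cdc6, Cdt1 and Hells. The same site was present in 1 of 27 mitosis promoters (3.70%), that of Cdk1, and in 2.32% of all 27025 promoters. A CHR, searched as TTTGAA or TTCGAA on either strand, was present in 23 of 27 mitosis promoters (85.2%), in 2 of 14 replication promoters (14.3%) and in 19.4% of all promoters. CCAAT, on either strand, was present in 20 of 27 mitosis promoters (74.1%), in 7 of 14 replication promoters and in 37.9% of all promoters. E2F matches can overlap each other on opposite strands, as in Mcm5, and a match describes letters only. The 200 bases before the start are shown for 2 mitosis members and 2 replication members, to set the layouts side by side. They lie upstream of the first exon on GRCm38.p6, at chr10:69352913-69353112 on the minus strand for Cdk1, chr4:118437344-118437543 on the minus strand for Cdc20, chr8:75109309-75109508 on the plus strand for Mcm5 and chr19:38930790-38930989 on the plus strand for Hells. Capitals mark the matches to the E2F, CHR and CCAAT letters on either strand, and each sequence reads 5′ to 3′ in the direction of transcription.
Cdk1: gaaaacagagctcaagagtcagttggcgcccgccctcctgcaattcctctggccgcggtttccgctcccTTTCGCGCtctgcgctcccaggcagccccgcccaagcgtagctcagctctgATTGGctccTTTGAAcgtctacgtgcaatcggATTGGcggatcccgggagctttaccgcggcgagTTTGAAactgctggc
Cdc20: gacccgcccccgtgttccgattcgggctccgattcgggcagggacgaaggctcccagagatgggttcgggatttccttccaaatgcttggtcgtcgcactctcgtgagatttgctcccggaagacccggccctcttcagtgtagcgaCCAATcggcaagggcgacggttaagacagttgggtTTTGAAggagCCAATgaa
Mcm5: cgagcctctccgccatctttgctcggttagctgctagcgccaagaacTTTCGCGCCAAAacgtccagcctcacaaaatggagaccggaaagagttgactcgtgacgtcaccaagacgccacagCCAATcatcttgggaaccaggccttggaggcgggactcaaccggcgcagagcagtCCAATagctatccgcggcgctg
Hells: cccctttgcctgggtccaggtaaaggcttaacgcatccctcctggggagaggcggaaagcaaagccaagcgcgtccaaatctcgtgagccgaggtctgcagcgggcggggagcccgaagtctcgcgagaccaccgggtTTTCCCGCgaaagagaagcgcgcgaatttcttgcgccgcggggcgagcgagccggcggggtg
Cdk1 carries an E2F match, a pair of CHR matches, the nearer beginning at position -15 from the start, and CCAAT matches between and beside them. Cdc20 has a CHR match and CCAAT matches and no E2F match, Mcm5 has overlapping E2F matches and CCAAT matches and no CHR match, and Hells has an E2F match alone.

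A level is given as the log2 processed intensity minus the log2 of the array's own 75th percentile, so that 0 is the level of that percentile, and a difference is on the log2 scale. A gene was called when its limma p-value, adjusted over all genes tested by the Benjamini-Hochberg method, was under 0.05. The 75th percentiles ranged from 527 to 1091 intensity units, and 62.5% to 71.6% of probes per array were well above background. Of the 51 members with a probe, 39 were well above background on all 16 arrays. The targeted gene Nr3c2 was at -4.46 ± 0.25 in flox and -4.63 ± 0.11 in cardioMRKO hearts at 1 month (SD, n = 4), a difference of -0.17 (exact permutation test, two-sided, p = 0.257). At 2 months it was at -3.70 ± 0.19 in flox and -4.13 ± 0.23 in cardioMRKO hearts, a difference of -0.43 (exact permutation test, two-sided, p = 0.0286, the smallest that 4 against 4 allows; limma adjusted p = 0.122). Whether its probe lies in the deleted part was not tested. All 8 cardiomyocyte markers passed the filter, and none of them was called in any comparison by limma, with 0 to 3 at an unadjusted p under 0.05. Markers of airway epithelium were also detected, on some arrays only. The mean level of the 6 airway genes was -6.16 to -5.30 on flox 1-month replicates 1 to 3 and 2.93 on replicate 4. It was 2.05, -0.53, -5.88 and -0.92 on cardioMRKO 1-month replicates 1 to 4, 2.25 to 5.47 on the flox 2-month arrays and 0.19 to 2.94 on the cardioMRKO 2-month arrays. The spike-in controls, taken relative to each array's 75th percentile, deviated from their mean over the arrays by -0.84 on flox 2-month replicate 4. The deviation was -0.51 on cardioMRKO 2-month replicate 3, on the log2 scale. The 75th percentile of the latter array was the highest of all, at 1091, so its spike-ins were low relative to a bright array. That of the former was the lowest, at 527. The part of airway tissue and of labelling in the member results was not tested. Counts of called members are also given without these low spike-in arrays, and without flox 1-month replicate 4 and cardioMRKO 1-month replicate 1. The latter fits keep every 2-month array, with airway levels from 0.19 to 5.47. They also keep cardioMRKO 1-month replicates 2 and 4, at -0.53 and -0.92, so they do not remove the airway signal from any comparison.

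**Figure D1:**
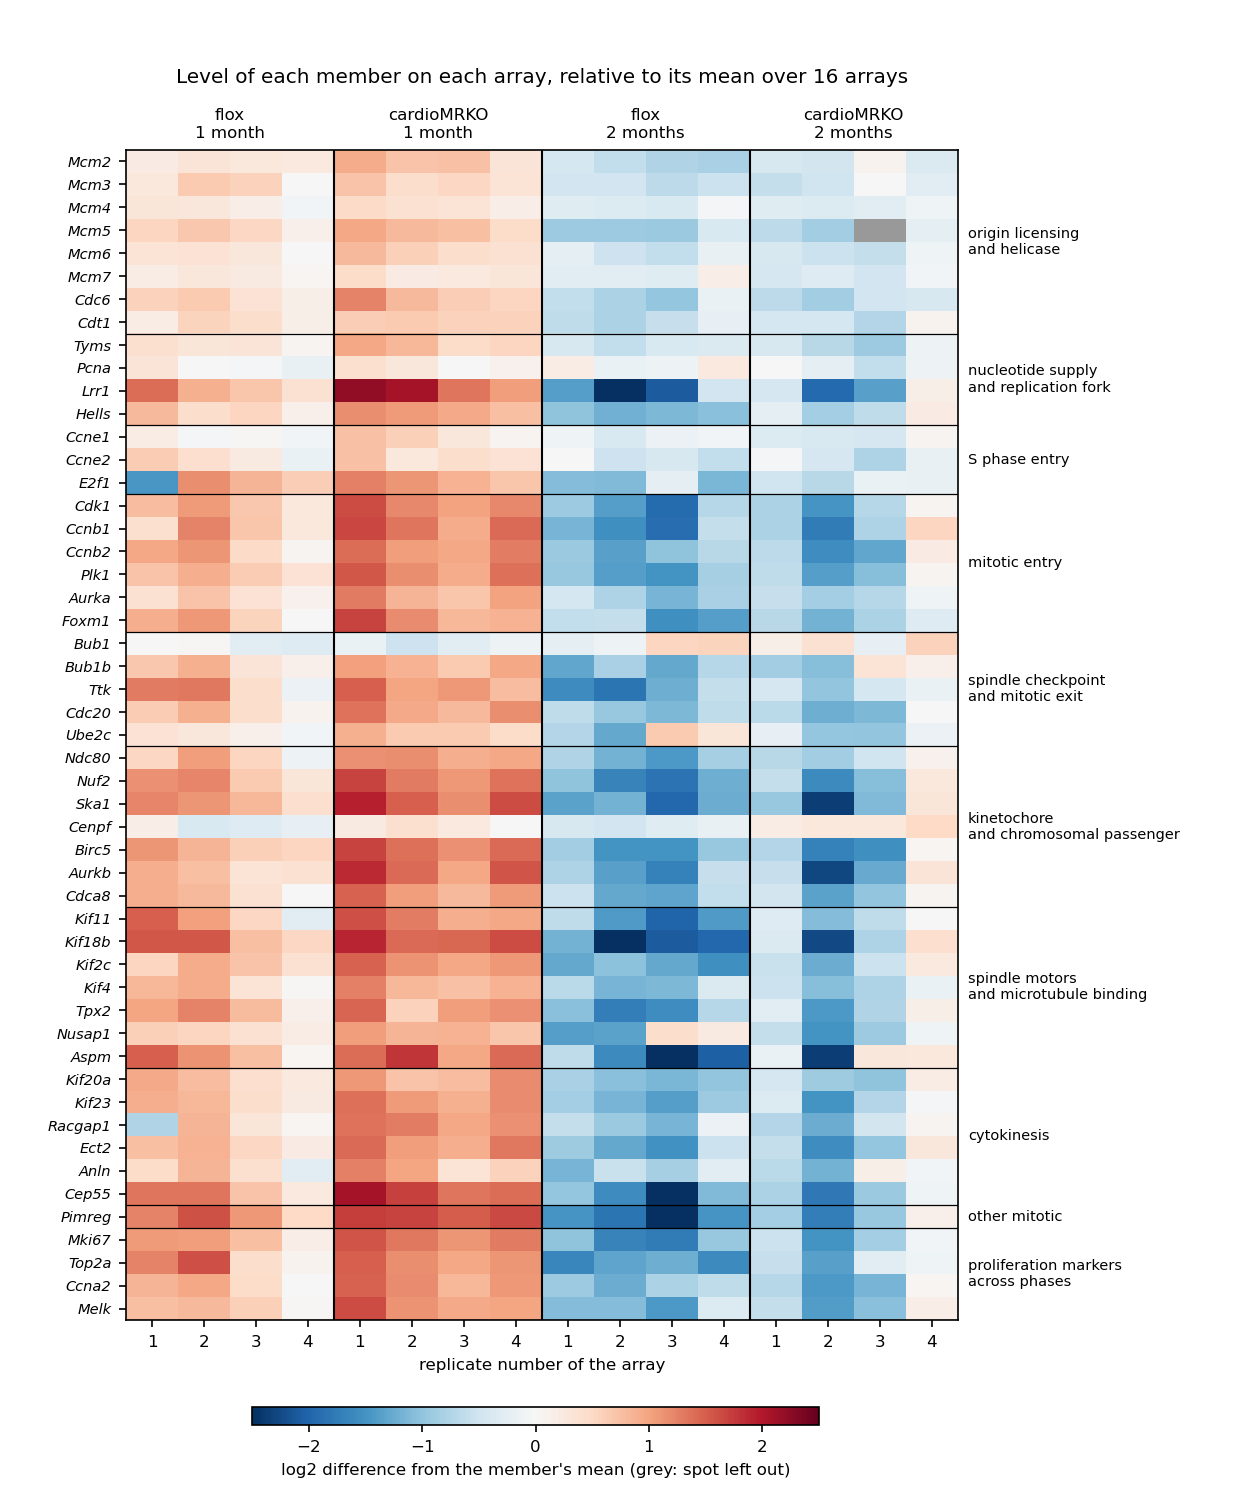
Each row is a member, ordered by role, and each column is 1 of the 16 arrays, with the colour giving the log2 level relative to the member's mean over the arrays. Most rows are red on the 1-month arrays and blue on the 2-month arrays, while Pcna, Bub1 (brightest probe) and Cenpf show little of this, and the grey cell is a spot of Mcm5 that was left out.

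The first question was how the members differed between 1 and 2 months within each genotype. In flox hearts 42 of the 50 tested members fell from 1 to 2 months and none rose. Calls in either direction were made for 22.7% of all genes tested, and 5.91% were called lower. In cardioMRKO hearts 46 of 50 fell and none rose, against 10.2% of all genes called in either direction and 4.93% called lower. The median over the 51 members was -1.54 in flox and -1.64 in cardioMRKO hearts, while the median over all genes tested was 0.07 and 0.00. All 4 flox 2-month arrays lay below all 4 flox 1-month arrays for 41 of 51 members, as for 8.09% of all genes. The same held for 47 of 51 members in cardioMRKO hearts, where 10.8% of all genes showed it. Each of the 42 members that fell in flox hearts fell in cardioMRKO hearts too, which is 91.3% of the latter list. The 2 age comparisons contrasted different arrays, but both came from 1 fit to all 16 arrays with a shared estimate of the spread. Their calls are therefore not independent. With only the 8 arrays compared in each fit, 40 members fell in flox and 45 in cardioMRKO hearts. Ccne1, Ube2c, Nusap1 and Racgap1 passed the test in cardioMRKO and not in flox hearts, but the difference between the genotypes in the age effect was not called for any of them. Among the 39 members well above background on all 16 arrays, a choice that leaves out members dim at 2 months, 31 fell in flox and 35 in cardioMRKO hearts. Without flox 1-month replicate 4 and cardioMRKO 1-month replicate 1, where airway genes were high, 41 fell in flox and 44 in cardioMRKO hearts. All 2-month arrays, where airway genes were also detected, stayed in these fits, so the counts cannot show the part of airway tissue. Without flox 2-month replicate 4 and cardioMRKO 2-month replicate 3, where spike-ins were low, 43 fell in flox and 46 in cardioMRKO hearts, where Bub1 was called higher on its brighter probe (0.65, adjusted p = 0.0282). With normexp background correction in place of the scanner software's processed signal, 30 members fell in flox and 46 in cardioMRKO hearts. The members that lost the flox call were Mcm4, Cdc6, Lrr1, Hells, Ccne2, Ccnb1, Aurkb, Kif11, Kif18b, Kif2c, Aspm and Anln, with differences from -0.53 for Aurkb to -0.08 for Kif2c, all below 0.

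The median difference was farther below 0 for the mitosis members than for the replication members in both genotypes. Of the replication members, 12 of 15 fell in flox hearts with a median difference of -0.88, which is 1.84-fold, and 13 of 15 fell in cardioMRKO hearts with a median of -0.96, or 1.95-fold. Of the mitosis members, 26 of 31 tested fell in flox hearts with a median over all 32 of -1.67, or 3.19-fold, and 29 of 31 fell in cardioMRKO hearts with a median of -1.79, or 3.45-fold. All 4 members of both classes fell in both genotypes, with medians of -1.82 and -1.93. These medians are descriptions, and the difference between the classes was not tested over the members. The replication medians include Lrr1, and the mitosis medians Ttk, Kif18b, Kif2c and Aspm, all well above background on no flox 2-month array. The fold sizes thus depend in part on dim signals. With normexp background correction the flox medians were -0.34 for replication and -0.67 for mitosis members. In cardioMRKO hearts they were -0.68 and -1.13. On each array the median of the mitosis members was set against that of the replication members, every member being taken relative to its own mean over the arrays. The mitosis median minus the replication median was 0.56, 0.49, 0.17 and 0.06 on the flox 1-month arrays and -0.44, -0.67, -0.83 and -0.36 on the flox 2-month arrays. It was 0.64, 0.45, 0.40 and 0.79 on the cardioMRKO 1-month arrays and -0.18, -0.85, -0.23 and 0.21 on the cardioMRKO 2-month arrays. Within each genotype every 1-month array was thus above every 2-month array, although cardioMRKO 2-month replicate 4 lay above flox 1-month replicates 3 and 4.

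**Figure D2:**
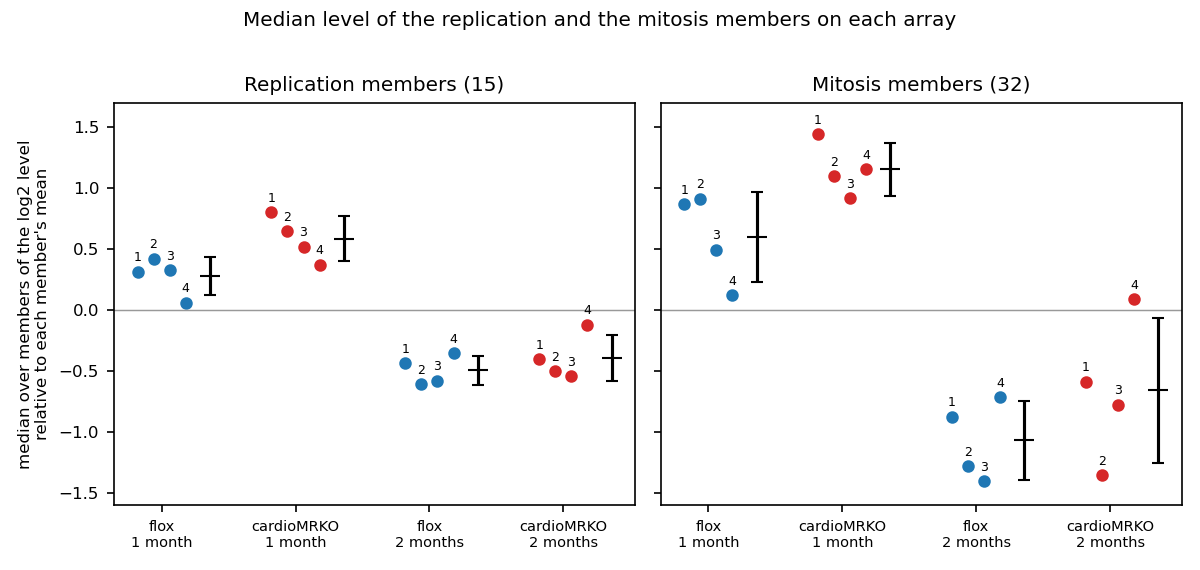
Points are arrays, numbered by replicate, and give the median over the 15 replication members (left) or the 32 mitosis members (right) of the log2 level relative to each member's mean; bars are the mean and SD of the 4 arrays. Blue is flox and red is cardioMRKO, and within each genotype all 1-month arrays lie above all 2-month arrays in both panels.

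Within a class, members with and without the motif had overlapping age differences. Among the replication members with a probe and a promoter entry, the median age difference in flox hearts was -0.92 for 7 with an E2F match and -0.81 for 6 without one. In cardioMRKO hearts these medians were -0.98 and -1.09. Among the mitosis members, the median in flox hearts was -1.59 for 22 with a CHR match and -1.97 for 4 without one, and in cardioMRKO hearts -1.74 and -2.07. In each of these pairs the range of one set of members overlapped that of the other.

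Origin licensing and the replicative helicase were covered by 8 members, and all 8 fell in both genotypes, with medians of -0.90 in flox and -0.96 in cardioMRKO hearts. Mcm2, a helicase subunit, was at -0.24, -0.12, -0.18 and -0.20 on the flox 1-month arrays and at -0.88, -1.05, -1.21 and -1.25 on the flox 2-month arrays. Its level was 0.48, 0.27, 0.29 and -0.12 on the cardioMRKO 1-month arrays and -0.85, -0.90, -0.36 and -0.80 on the cardioMRKO 2-month arrays. The ages did not overlap in either genotype, and Mcm2 fell by 0.91 (SE 0.14, adjusted p = 0.00065) in flox and by 0.96 (SE 0.14, adjusted p = 0.0010) in cardioMRKO hearts. Mcm5, another subunit, showed the largest fall of the MCM genes in both genotypes, by 1.24 in flox (SE 0.18, adjusted p = 0.00051) and by 1.33 in cardioMRKO hearts (SE 0.19, adjusted p = 0.0011). The second of these rests on 3 cardioMRKO 2-month arrays, because the Mcm5 spot of replicate 3 was an outlier spot and was left out. Mcm3 fell by 0.92 and 0.84, Mcm4 by 0.44 and 0.60, and Mcm6 by 0.63 and 0.96 in flox and cardioMRKO hearts. Cdc6, the licensing ATPase, fell by 1.07 (SE 0.19) in flox and by 1.41 (SE 0.19) in cardioMRKO hearts, and its further probe differed by -1.38 in flox hearts. Cdt1, which loads the helicase with CDC6, fell by 0.88 and 0.98 (SE 0.16). Mcm7 fell by 0.36 in flox hearts (adjusted p = 0.0476), a call kept in 4 of the 16 fits that left out 1 array (flox 1-month replicate 4, flox 2-month replicate 4, cardioMRKO 2-month replicate 3 or 4) and lost in the others, with an adjusted p of up to 0.121, and by 0.63 in cardioMRKO hearts (adjusted p = 0.0052).

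Nucleotide supply and fork proteins behaved unevenly. Pcna, the sliding clamp of DNA polymerases, was the 1 replication member with a difference above 0 in flox hearts. It was at 3.36, 3.03, 3.0 and 2.86 on the flox 1-month arrays and at 3.23, 2.88, 2.93 and 3.30 on the flox 2-month arrays. These values overlapped, and the difference was 0.02, with a sign that turned under several alternatives, and with a 95% confidence interval of -0.31 to 0.35. In cardioMRKO hearts Pcna was at 3.44, 3.32, 3.06 and 3.15 at 1 month and at 3.07, 2.81, 2.42 and 2.92 at 2 months, a difference of -0.44 (95% confidence interval -0.77 to -0.10, adjusted p = 0.0926) that was not called. With array weights it was called lower there (limma adjusted p = 0.0476), as with the replicate block (limma adjusted p = 0.0371). Tyms, thymidylate synthase, fell by 0.71 (SE 0.16, adjusted p = 0.0060) in flox and by 1.22 (SE 0.16, adjusted p = 0.00052) in cardioMRKO hearts. Hells, a chromatin remodeller of the SNF2 family, was at -3.87, -4.24, -4.13 and -4.55 in flox hearts at 1 month and at -5.69, -5.88, -5.81 and -5.72 at 2 months. It fell by 1.58 (SE 0.20, adjusted p = 0.00020) there and by 1.35 (SE 0.20, adjusted p = 0.00095) in cardioMRKO hearts. Lrr1, the substrate receptor of a ubiquitin ligase that unloads the helicase when replication ends, was not well above background on any 2-month array. It was at least 1.98-fold lower at 2 months in flox hearts and at least 3.47-fold lower in cardioMRKO hearts (adjusted p = 0.0025 and 0.0046). Such a bound sets the brighter group's mean against the lowest signal that counted as well above background on each array of the dimmer group. The spot's own signal was used where it was higher. A spot can miss the flag above that lowest signal, as for Aspm in flox hearts at 2 months. The bounds, here and below, are therefore approximate and not strict minima. With normexp background correction the Lrr1 difference in flox hearts was -0.11, short of the bound given.

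The 3 members for S phase entry gave fewer calls. Ccne2, a cyclin E, fell by 0.67 in flox (SE 0.20, adjusted p = 0.0255) and by 0.80 in cardioMRKO hearts (adjusted p = 0.0198). The first call was kept in 10 (lost without flox 1-month replicate 1, 2 or 3 or flox 2-month replicate 2, 3 or 4, adjusted p up to 0.0754) and the second in 14 of the 16 fits that left out 1 array, the second being lost without cardioMRKO 1-month replicate 1 (adjusted p = 0.0575) and without cardioMRKO 2-month replicate 2 (adjusted p = 0.0529). Ccne1, the other cyclin E, fell by 0.68 (SE 0.15, adjusted p = 0.0107) in cardioMRKO hearts, and its difference in flox hearts was -0.20 (95% confidence interval -0.52 to 0.12). A dimmer Ccne1 probe differed by 0.23 in flox and 0.27 in cardioMRKO hearts, the other way, and the mean of both probes was not called. E2f1, the transcription factor, was at -5.24, -2.61, -2.93 and -3.16 on the flox 1-month arrays and at -4.86, -4.87, -4.01 and -4.92 on the flox 2-month arrays. Replicate 1 of the first group lay below every 2-month array, and the difference of -1.18 was not called (adjusted p = 0.0652), nor was that of -1.37 in cardioMRKO hearts (adjusted p = 0.0598). The further E2f1 probe read -3.89, -3.89, -4.39 and -4.35 on the flox 1-month arrays, where replicate 1 was among the higher values. Without replicate 1 of the flox 1-month group the difference on the first probe was -1.76 (adjusted p = 0.00039) in flox hearts, and the adjusted p in cardioMRKO hearts was 0.0019. Without flox 2-month replicate 3 the flox difference was -1.40 (adjusted p = 0.0473).

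**Figure D3:**
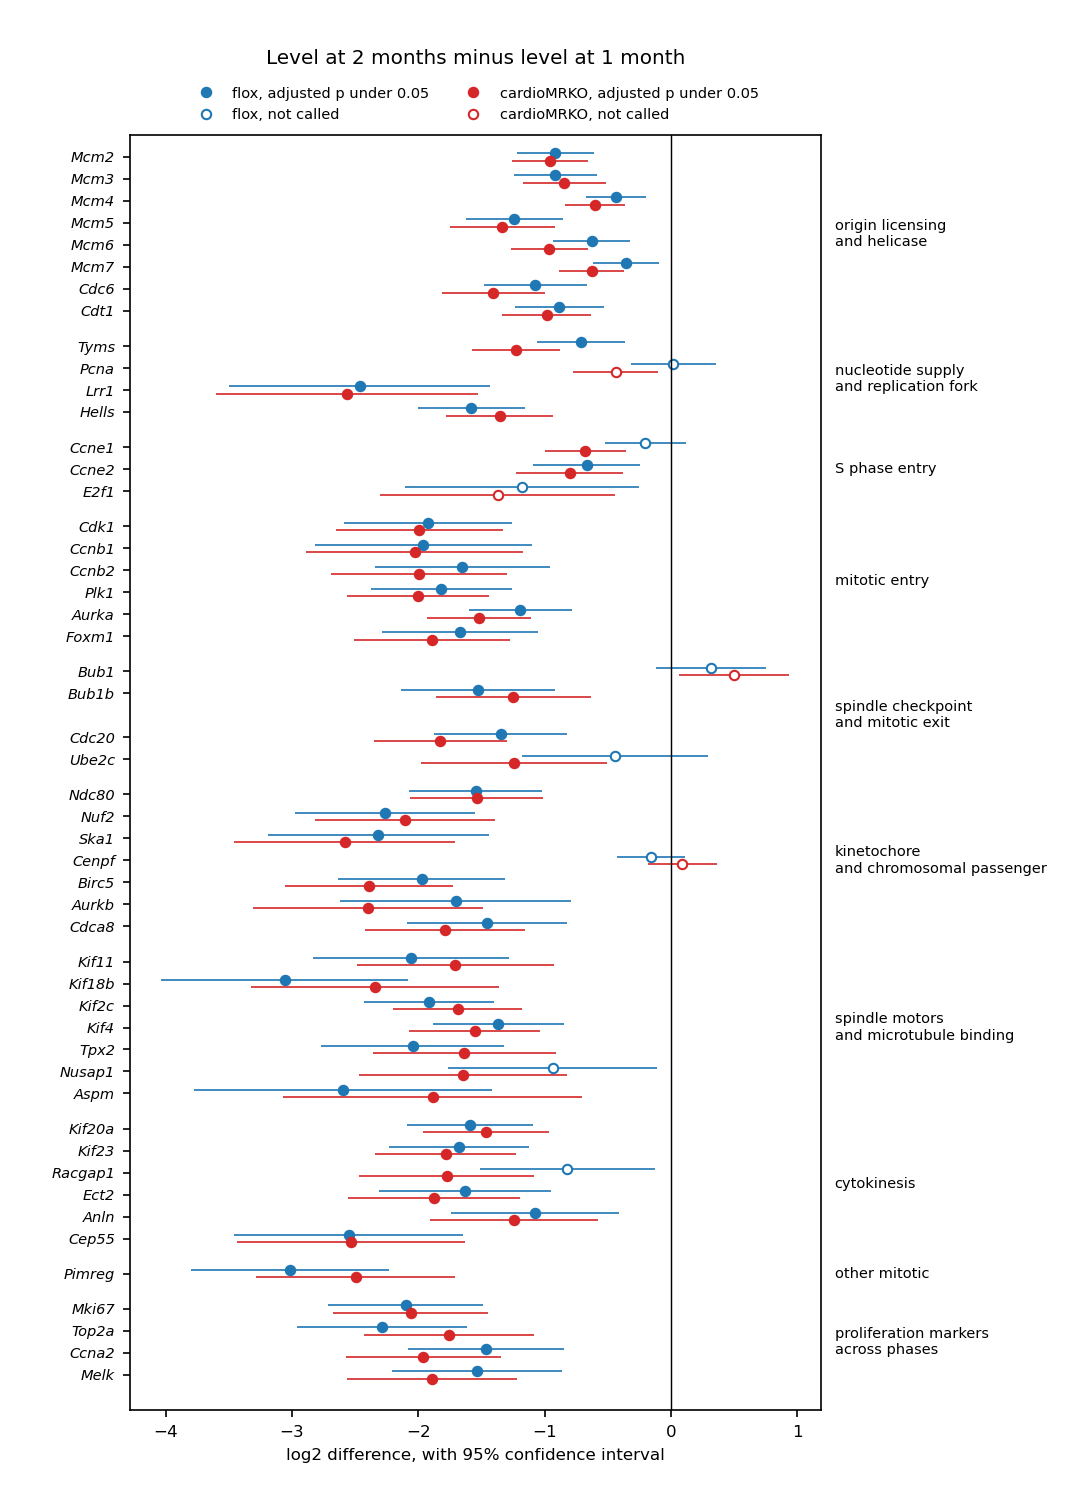
Each member's log2 difference between 2 months and 1 month is shown for flox (blue) and cardioMRKO (red) with its 95% confidence interval, and filled points passed the test at an adjusted p under 0.05. Nearly all points lie left of 0 and those of mitosis members mostly farther left than those of replication members, with Bub1, Cenpf and, in flox hearts, Pcna near or above 0.

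The 6 members for mitotic entry all fell in both genotypes, with medians of -1.74 in flox and -1.99 in cardioMRKO hearts. Cdk1, the kinase that starts mitosis, was at -1.72, -1.42, -1.82 and -2.24 on the flox 1-month arrays and at -3.39, -3.87, -4.42 and -3.21 on the flox 2-month arrays. In cardioMRKO hearts it was at -0.86, -1.30, -1.49 and -1.29 at 1 month and at -3.28, -3.97, -3.21 and -2.43 at 2 months. The ages did not overlap, and Cdk1 fell by 1.92 in flox (3.79-fold, SE 0.31, adjusted p = 0.00082) and by 1.99 in cardioMRKO hearts (3.97-fold, SE 0.31, adjusted p = 0.0014). Its partner cyclins fell by similar amounts, Ccnb1 by 1.96 and 2.03 and Ccnb2 by 1.65 and 1.99. Plk1, the Polo kinase of mitotic entry, fell by 1.82 and 2.00, a 3.52-fold and a 4.00-fold difference. Aurka, the spindle pole Aurora kinase, fell by 1.19 and 1.52, and Foxm1, the factor that drives late cell cycle genes, by 1.67 and 1.89.

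At the spindle checkpoint and mitotic exit, Bub1b and Cdc20 fell in both genotypes, while the result for Bub1 depended on the probe. Bub1b, the BUBR1 checkpoint protein, fell by 1.53 in flox (SE 0.28, adjusted p = 0.0019) and by 1.25 in cardioMRKO hearts (adjusted p = 0.0135). Cdc20, the activator of the anaphase-promoting complex, was at 0.50, 0.75, 0.30 and -0.05 in flox hearts at 1 month and at -0.78, -1.09, -1.26 and -0.77 at 2 months. It fell by 1.35 in flox (SE 0.25, adjusted p = 0.0017) and by 1.82 in cardioMRKO hearts (SE 0.25, adjusted p = 0.00060). Bub1, the checkpoint kinase, has 2 probes on the array, matched to different RefSeq transcripts. The brighter probe, used by the rule, was at -1.31, -1.30, -1.60 and -1.64 in flox hearts at 1 month and at -1.58, -1.45, -0.79 and -0.76 at 2 months, and its differences of 0.32 and 0.50 were not called (adjusted p = 0.288 and 0.140). The other probe was at -3.03, -2.97, -3.23 and -3.49 in flox hearts at 1 month and at -5.49, -6.09, -6.13 and -5.31 at 2 months, a difference of -2.58, and it differed by -2.47 in cardioMRKO hearts. The direction for Bub1 therefore depends on the probe, and the mean of both probes was lower at 2 months by limma (-1.13 in flox and -0.98 in cardioMRKO hearts, adjusted p = 0.0023 and 0.0116). With array weights the brighter probe was higher at 2 months in cardioMRKO hearts (0.59, adjusted p = 0.0190). Ttk was well above background on 1 array of each 1-month group and on no 2-month array. With 1 measured array in each 1-month group, no bound could be set for Ttk in either genotype. With no filter on dim probes it was called lower in both genotypes (adjusted p = 0.0016 and 0.0150).

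Ube2c, the ubiquitin-conjugating enzyme of mitotic exit, and Nusap1, a spindle microtubule protein, shared a pattern across the flox 2-month arrays. Ube2c was at -2.20, -2.76, -0.83 and -1.18 and Nusap1 at -3.73, -3.69, -1.90 and -2.11 on flox 2-month replicates 1 to 4. Replicates 3 and 4 lay well above replicates 1 and 2 for both genes. On the same arrays the median of the erythroid markers (4 of 6 listed markers tested) relative to their means was -0.68, -0.70, 2.49 and 1.35, against a range of -1.24 to 0.99 over the other 12 arrays. The part of red cell RNA in these levels was not tested. Ube2c differed by -0.44 (95% confidence interval -1.18 to 0.29) in flox hearts and fell by 1.24 in cardioMRKO hearts (SE 0.34, adjusted p = 0.0342), a call kept in 10 of the 16 fits that left out 1 array and lost without any of the cardioMRKO 1-month replicates or cardioMRKO 2-month replicate 2 or 3 (adjusted p up to 0.0980). Nusap1 differed by -0.94 in flox hearts (adjusted p = 0.0994; 0.0282 without flox 2-month replicate 3 and 0.0480 without replicate 4) and fell by 1.64 in cardioMRKO hearts (SE 0.39, adjusted p = 0.0153), with an adjusted p of 0.0502 without cardioMRKO 2-month replicate 2. The difference between the genotypes was -0.80 for Ube2c (95% confidence interval -1.84 to 0.24) and -0.71 for Nusap1 (-1.88 to 0.46), and neither was called by limma.

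Of the 7 kinetochore and chromosomal passenger members, 6 fell in both genotypes, with medians over the 7 of -1.70 in flox and -2.10 in cardioMRKO hearts. Nuf2 and Ndc80, subunits of the complex that holds microtubules at the kinetochore, fell by 2.27 and 1.55 in flox and by 2.10 and 1.54 in cardioMRKO hearts. Ska1, which helps that complex follow shrinking microtubules, fell by 2.32 (4.98-fold) and 2.58 (5.99-fold). The passenger complex members Birc5, Aurkb and Cdca8 fell in both genotypes, with differences of -1.97, -1.70 and -1.45 in flox hearts and -2.39, -2.40 and -1.79 in cardioMRKO hearts. Birc5 (survivin) was at 1.05, 0.78, 0.54 and 0.48 in flox hearts at 1 month and at -0.93, -1.55, -1.56 and -1.01 at 2 months, with no overlap. Cenpf, a large protein of the kinetochore and nuclear matrix, was the exception. Its level was 1.76, 1.23, 1.28 and 1.41 in flox hearts at 1 month and 1.21, 1.12, 1.30 and 1.42 at 2 months, a difference of -0.16 (95% confidence interval -0.43 to 0.12). In cardioMRKO hearts Cenpf was at 1.83, 2.00, 1.84 and 1.61 at 1 month and at 1.80, 1.87, 1.87 and 2.11 at 2 months, a difference of 0.09 (-0.18 to 0.36). The further Cenpf probe, matched to the same transcript, had differences of 0.20 and 0.60, which were not tested.

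**Figure D4:**
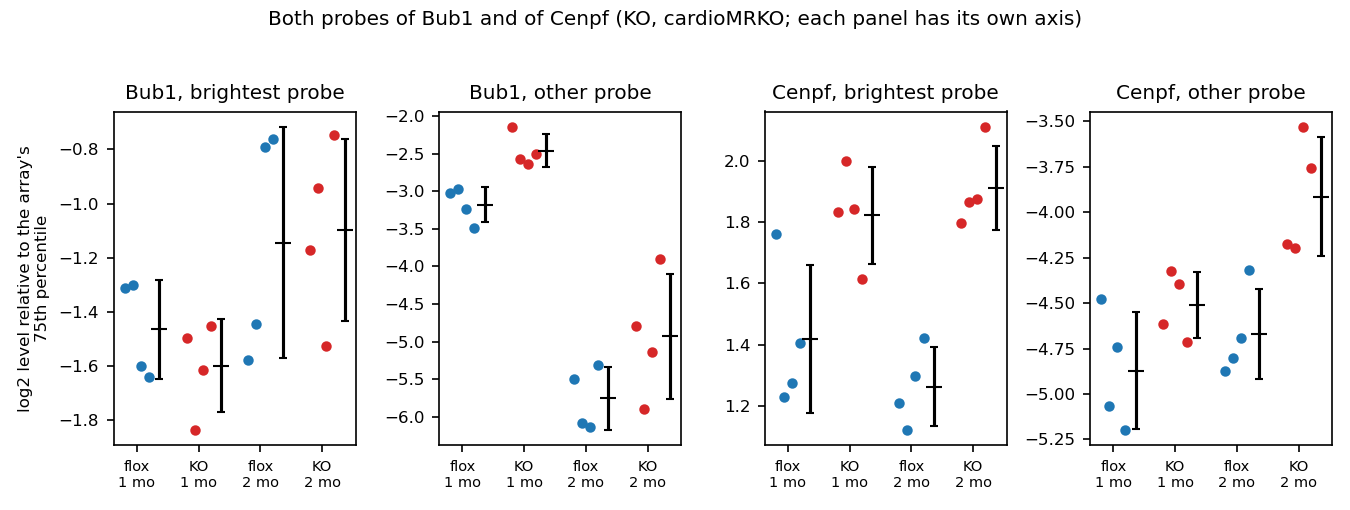
Points are arrays and bars are the mean and SD of 4 arrays for each of the 2 probes of Bub1 and of Cenpf, on the log2 scale relative to the array's 75th percentile; each panel has its own axis. The brighter Bub1 probe is not lower at 2 months while the other probe is by more than 2 log2 units, and the Cenpf means, which differ between ages by -0.16 to 0.60, are higher in cardioMRKO at both ages on both probes.

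Of the 7 tested spindle motor and microtubule binding members, 6 fell in flox hearts (median -2.05) and all 7 in cardioMRKO hearts (median -1.69). Kif18b, a motor that shortens astral microtubules, was at -3.86, -3.86, -4.66 and -4.89 on the flox 1-month arrays and at -6.60, -8.03, -7.51 and -7.38 on the flox 2-month arrays. None of the latter was well above background, so that Kif18b was at least 3.56-fold lower at 2 months in flox hearts (measured difference -3.06, SE 0.46, adjusted p = 0.00053). In cardioMRKO hearts it fell by 2.34 (SE 0.46, adjusted p = 0.0055). Aspm, a spindle pole protein, was at least 3.08-fold lower in flox hearts (adjusted p = 0.0040). Its fall of 1.89 in cardioMRKO hearts (adjusted p = 0.0432) was kept in 7 of the 16 fits that left out 1 array, with an adjusted p of up to 0.115. It was lost without flox 1-month replicate 2 or 3, any cardioMRKO 1-month replicate, flox 2-month replicate 2 or cardioMRKO 2-month replicate 1 or 2. Kif2c, which takes microtubule ends apart, was at least 1.58-fold lower in flox hearts, where it was measured on 3 of 4 arrays at 1 month, and at least 2.26-fold lower in cardioMRKO hearts. With normexp background correction the flox differences of Kif18b, Aspm and Kif2c were -0.39, -0.27 and -0.08, short of these approximate bounds. Kif11, which pushes the spindle poles apart, fell by 2.06 and 1.71, Tpx2, the activator of Aurora A, by 2.05 and 1.64, and the chromokinesin Kif4 by 1.37 and 1.55.

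For cytokinesis, 5 of 6 members fell in flox and all 6 in cardioMRKO hearts, with medians of -1.61 and -1.78. Cep55, which recruits the abscission machinery, fell by 2.55 in flox hearts (5.86-fold, SE 0.42, adjusted p = 0.00095) and fell by 2.53 in cardioMRKO hearts (5.78-fold, SE 0.42, adjusted p = 0.0021). The kinesins Kif20a and Kif23 fell by 1.59 and 1.68 in flox and by 1.46 and 1.78 in cardioMRKO hearts. Ect2, the exchange factor that activates RhoA at the cleavage furrow, fell by 1.63 and 1.88, and Anln, the furrow scaffold, by 1.07 and 1.24. The Anln calls were each kept in 12 of the 16 fits that left out 1 array, with adjusted p-values of up to 0.0707 in flox hearts (lost without flox 1-month replicate 2 or 3 or flox 2-month replicate 1 or 3) and up to 0.0654 in cardioMRKO hearts (lost without replicate 1 or 2 of either age). Racgap1, the partner of KIF23 in the central spindle, was at -4.09, -2.50, -3.04 and -3.29 on the flox 1-month arrays and at -3.93, -4.26, -4.50 and -3.50 on the flox 2-month arrays. These ranges overlapped because of replicate 1 at 1 month, the array that was also low for E2f1, and the difference of -0.82 was not called (adjusted p = 0.0864), but was -1.11 without that array (adjusted p = 0.0176). In cardioMRKO hearts Racgap1 fell by 1.78 (SE 0.32, adjusted p = 0.0036). Pimreg, a mitotic protein that binds the clathrin adaptor PICALM, was at -0.96, -0.61, -1.12 and -1.71 in flox hearts at 1 month and at -3.67, -4.03, -5.08 and -3.68 at 2 months. It had the smallest adjusted p of the members in flox hearts, where it fell by 3.02 (8.08-fold, SE 0.37, adjusted p = 0.00018), and fell by 2.50 (5.64-fold, adjusted p = 0.00097) in cardioMRKO hearts.

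The proliferation markers followed the mitosis members. Mki67, the Ki-67 antigen, was at 1.41, 1.41, 1.11 and 0.52 on the flox 1-month arrays and at -0.65, -1.31, -1.40 and -0.59 on the flox 2-month arrays. In cardioMRKO hearts it was at 1.93, 1.69, 1.46 and 1.65 at 1 month and at -0.18, -1.13, -0.48 and 0.28 at 2 months. Both genotypes were without overlap between ages, and Mki67 fell by 2.10 (4.28-fold, SE 0.29, adjusted p = 0.00033) and by 2.06 (4.17-fold, SE 0.29, adjusted p = 0.00073). Top2a, the topoisomerase that untangles replicated DNA, fell by 2.29 (SE 0.31, adjusted p = 0.00033) in flox and by 1.76 (SE 0.31, adjusted p = 0.0032) in cardioMRKO hearts. Ccna2, the cyclin of S phase and early mitosis, fell by 1.46 and 1.96, and Melk, a mitotic kinase, by 1.54 and 1.89.

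Further genes of the same processes, listed apart from the members, had the same order of medians. Of the other replication genes, 13 of 34 tested fell and 1 rose in flox hearts (median -0.35), and 17 fell and none rose in cardioMRKO hearts (median -0.51). Dtl, the CDT1 degradation factor, fell by 1.86 and 2.22, and the gene that rose in flox hearts was Gmnn, the CDT1 inhibitor geminin, by 0.39 (adjusted p = 0.0195). Of the other mitosis genes, 30 of 39 fell in flox (median -1.24) and 32 of 39 in cardioMRKO hearts (median -1.44), with none rising. Hmmr, a spindle assembly protein, fell in both, with differences of -2.50 and -2.41 (adjusted p = 0.00013 and 0.00024). None of 10 tested G1 cyclins and kinases was called in any comparison by limma, with 2 or 3 of them at an unadjusted p under 0.05 in each of the comparisons between ages or genotypes. Skp2, which targets the inhibitor p27 for degradation, had the smallest p among them in flox hearts, with a difference of -0.45 (adjusted p = 0.0669). The list of cell cycle inhibitors had 17 tested genes, not all of which, Lin9 among them, act only as inhibitors. On this list Cdkn2b rose by 0.77 in flox and 0.64 in cardioMRKO hearts, Lin37 rose by 0.34 in flox hearts, and Cdkn2d fell by 0.48 and 0.66. Lin9 fell by 0.42 and 0.49, and E2f4 fell by 0.61 in cardioMRKO hearts.

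Markers of other cell types moved with age as well. Of 6 fibroblast markers, 3 fell in each genotype, Col1a1 by 1.00 in flox and 1.16 in cardioMRKO hearts (adjusted p = 0.00036 and 0.00033), Col1a2 by 0.64 in both, and Lum by 0.45 and 0.55. Of 6 endothelial markers none was called in flox hearts by limma (2 had an unadjusted p under 0.05) and Cdh5 fell by 0.45 in cardioMRKO hearts. Among 4 tested B cell markers, 1 rose in flox and 3 in cardioMRKO hearts, led by Cd79a (1.16 and 1.62). Of the 6 airway genes, 5 rose in flox hearts, led by Scgb1a1 (8.22, adjusted p = 0.0096), and none was called in cardioMRKO hearts (3.78, adjusted p = 0.273 for Scgb1a1). Of 6 tested macrophage markers Cd14 rose by 0.53 in flox and Mrc1 fell by 0.51 in cardioMRKO hearts. Of 6 tested thymocyte markers Cd3e and Cd4 rose by 0.89 and 0.79 and Themis fell by 1.03 in flox hearts, and Cd4 rose by 0.73 in cardioMRKO hearts. No erythroid marker was called in either genotype, with 2 and 0 of 4 at an unadjusted p under 0.05. The part of these cell types in the fall of the members was not tested.

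The next question was whether the members differed between cardioMRKO and flox hearts of the same age. At 1 month none of the 50 tested members was called by limma, where 0.0947% of all genes were. Of the 50, 12 were higher in cardioMRKO hearts at an unadjusted p under 0.05, against 3.73% of all genes. The mean was higher in cardioMRKO hearts for 50 of 51 members with a probe, as for 54.3% of all genes. The exception was Bub1 on its brighter probe (-0.14), while its other probe was higher by 0.71. All 4 cardioMRKO arrays lay above all 4 flox arrays for 13 of 51 members, as for 3.95% of all genes. The median difference was 0.31 for the replication members, 0.53 for the mitosis members and 0.57 for the members of both classes, and 0.02 for all genes tested. This comparison shares its flox arrays with the age comparison in flox hearts and its cardioMRKO arrays with that in cardioMRKO hearts, so the members' values in them are not independent.

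The spread among the 1-month arrays bears on these medians. Flox replicate 4 was the lowest of its group for 46 of 51 members, against 31.2% of all genes, and cardioMRKO replicate 1 was the highest of its group for 45 of 51, against 22.2% of all genes. These are the 1-month arrays on which airway genes were highest. Without both of them the median difference was 0.15 for the replication and 0.31 for the mitosis members, and without flox replicate 4 alone the replication median was 0.23. No member was called in either case.

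**Figure D5:**
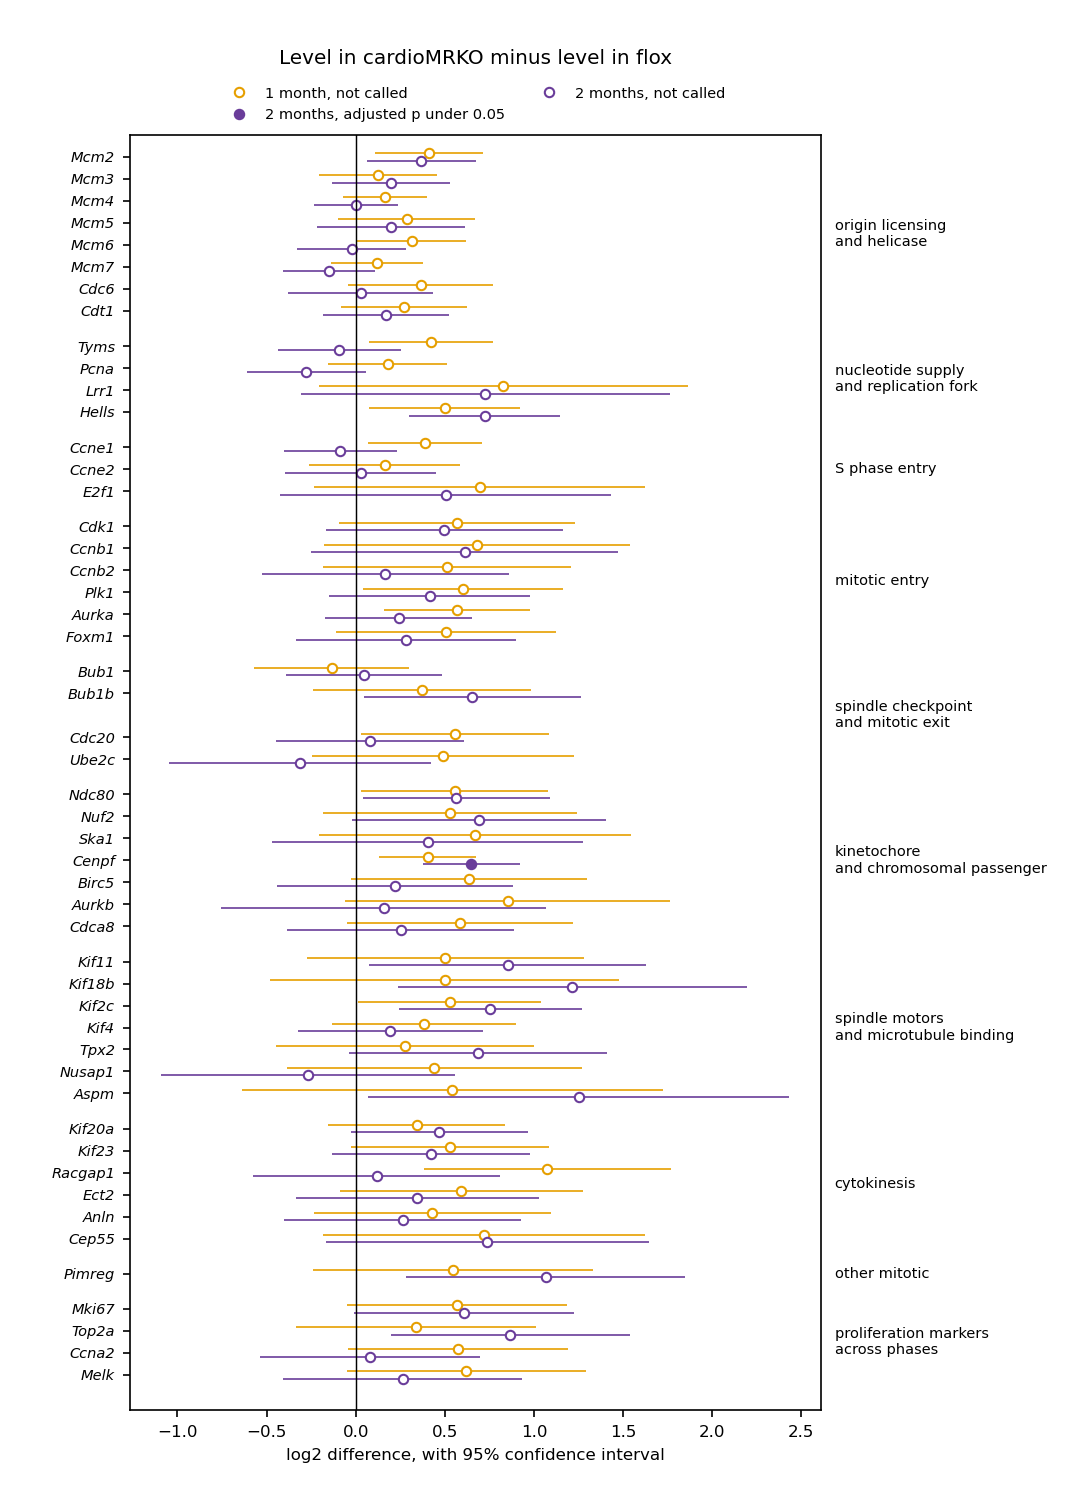
Each member's log2 difference between cardioMRKO and flox hearts is shown at 1 month (orange) and at 2 months (purple) with its 95% confidence interval. Most points lie right of 0 with intervals that include it, and the filled point, Cenpf at 2 months, is the one that passed the test. At 2 months Kif2c and Lrr1 were well above background on no array, and Kif18b and Aspm on no flox array.

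Racgap1 had the smallest p of the members at 1 month. It was at -4.09, -2.50, -3.04 and -3.29 in flox and at -1.99, -2.06, -2.37 and -2.20 in cardioMRKO hearts, with no overlap, a difference of 1.07 (95% confidence interval 0.38 to 1.77, adjusted p = 0.503). Flox replicate 1 was the low array here. The further Racgap1 probe read -5.54, -5.15, -7.57 and -5.76 on the flox arrays, where replicate 1 was not low. That probe, well above background on 2 flox and 3 cardioMRKO arrays, differed by 0.54, and its groups overlapped. Cenpf differed by 0.40 (0.13 to 0.67, adjusted p = 0.532), Aurka by 0.57 (0.16 to 0.98, adjusted p = 0.610) and Mcm2 by 0.41 (0.11 to 0.72, adjusted p = 0.638). Of the nucleotide and S phase members, Tyms differed by 0.42 (0.07 to 0.77) and Ccne1 by 0.39 (0.07 to 0.71). Cdc20 differed by 0.56 (0.03 to 1.09), Kif2c by 0.53 (0.02 to 1.04), Melk by 0.62 (-0.05 to 1.29) and Ccna2 by 0.58 (-0.04 to 1.19). Mki67 differed by 0.57 (-0.05 to 1.18), with all cardioMRKO arrays above all flox arrays, Pimreg by 0.55 (-0.24 to 1.33), Cdk1 by 0.57 (-0.10 to 1.23), Top2a by 0.34 (-0.33 to 1.01) and Pcna by 0.18 (-0.15 to 0.51).

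At 2 months 1 of the 50 tested members was called, where 3.53% of all genes were. That member was Cenpf, at 1.21, 1.12, 1.30 and 1.42 in flox and 1.80, 1.87, 1.87 and 2.11 in cardioMRKO hearts. The groups did not overlap, and Cenpf was higher in cardioMRKO hearts by 0.65 (1.57-fold, 95% confidence interval 0.38 to 0.92, adjusted p = 0.0137). The call was kept in all 16 fits that left out 1 array, and lost when the fit used only the 8 arrays at 2 months (adjusted p = 0.0815). Cenpf was also the 1 call without the 2 low spike-in arrays, and without the airway-high pair of 1-month arrays. Its further probe differed by 0.76 at 2 months and by 0.36 at 1 month. Of the 50 members, 11 were higher at an unadjusted p under 0.05, against 4.92% of all genes. Of these, 5 (Mcm2, Hells, Ndc80, Cenpf and Kif2c) were also among the 12 at 1 month, which is 41.7% of the 1-month and 45.5% of the 2-month list. The 11 include Kif18b and Aspm, well above background on no flox array at 2 months, and Kif2c, on no array at that age. The 2-month differences of Kif18b, Aspm and Kif2c are therefore not measured. The mean was higher in cardioMRKO hearts for 44 of 51 members, as for 38% of all genes, and all 4 cardioMRKO arrays lay above all 4 flox arrays for 2 of 51, Cenpf and Hells, as for 2.87% of all genes.

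By class, the median difference at 2 months was 0.03 for the replication members, 0.42 for the mitosis members and 0.44 for the members of both classes, and -0.08 for all genes tested. The first 2 medians include Lrr1, Ttk, Kif2c, Kif18b and Aspm, which were well above background on no flox array at 2 months. Hells was at -5.69, -5.88, -5.81 and -5.72 in flox and at -4.90, -5.52, -5.31 and -4.47 in cardioMRKO hearts, a difference of 0.72 (0.30 to 1.15, adjusted p = 0.0602). Mcm2 differed by 0.37 (0.07 to 0.67, adjusted p = 0.173), while Pcna differed by -0.28 (-0.61 to 0.06) and E2f1 by 0.50 (-0.42 to 1.43). Of the mitosis members, Kif2c was well above background on none of the 8 arrays at 2 months and Kif18b on no flox array, so no difference is given for them (adjusted p = 0.0971 and 0.164). Pimreg differed by 1.07 (0.28 to 1.85, adjusted p = 0.127) and Bub1b by 0.65 (0.04 to 1.27, adjusted p = 0.230). Cdk1 differed by 0.50 (-0.16 to 1.16), Plk1 by 0.41 (-0.15 to 0.98), and Kif20a by 0.47 (-0.03 to 0.97). Mki67 differed by 0.61 (-0.01 to 1.22, adjusted p = 0.270) and Top2a by 0.87 (0.20 to 1.54, adjusted p = 0.148).

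Within the cardioMRKO 2-month group, replicate 2 was the lowest for 39 of 51 members, against 10.9% of all genes, and replicate 4 was the highest for 43 of 51, against 29.3% of all genes. Without replicate 2, 5 members were called, with Aspm, Hells (0.88), Kif18b and Kif2c joining Cenpf, and the median of the mitosis members was 0.65. Aspm, Kif18b and Kif2c were well above background on none of the 4 flox arrays, and Kif2c on none of the cardioMRKO arrays either, so their differences are not measured. Without replicate 4 Cenpf alone was called and that median was 0.17, and it was 0.28 without flox replicate 3. With normexp background correction in place of the scanner software's processed signal, the median of the mitosis members was -0.01.

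Among genes listed apart from the members, the other mitosis genes had 2 calls at 2 months. Spc25, a subunit of the NDC80 complex, was at -3.75 ± 0.33 in flox and -2.61 ± 0.39 in cardioMRKO hearts (SD, n = 4), a rise of 1.14 (adjusted p = 0.0115). Gtse1, a microtubule protein of G2 and mitosis, was at -6.91 ± 0.63 and -5.61 ± 0.35, a measured rise of 1.31 (adjusted p = 0.0129), with 1 of 4 flox and 3 of 4 cardioMRKO arrays well above background. The median of the 39 was 0.18 at 2 months and 0.44 at 1 month, when none was called by limma and 7 had an unadjusted p under 0.05, Gtse1 with the smallest (0.84, adjusted p = 0.503). Of the 34 other replication genes none was called by limma at either age (6 and 2 at an unadjusted p under 0.05), with medians of 0.16 and -0.01. Gmnn, which had the smallest p of this list, differed by -0.33 at 1 month and by -0.42 at 2 months (adjusted p = 0.638 and 0.0520). Among the cell cycle inhibitors Cdkn1a, which encodes p21, was the 1 call at 2 months, at -0.39 ± 0.23 in flox and 0.59 ± 0.17 in cardioMRKO hearts, a rise of 0.98 (adjusted p = 0.0365). Skp2 differed by 0.63 at 2 months (adjusted p = 0.0507). Cardiomyocyte markers lay the other way from most members at 1 month, with 8 of 8 lower in cardioMRKO hearts (median -0.21). Of all 20055 genes tested, 9171 were lower at that age (median 0.02). For 4 of the 8 the genotypes did not overlap at 1 month, against 739 of all 20055 genes separated with cardioMRKO as the lower genotype. At that age 2 of the 8 were lower at an unadjusted p under 0.05, against 458 of all genes. At 2 months 6 of 8 markers were lower (median -0.09), as were 12428 of all 20055 genes (median -0.08). The markers' median at that age was thus close to that of all genes. Of the 8, 3 were lower at an unadjusted p under 0.05, against 2788 of all genes. None of the 8 was called at either age by limma. The part of these markers' differences in the member results was not tested. No fibroblast, endothelial, macrophage, erythroid, B cell or airway marker was called between the genotypes at either age by limma, the counts at an unadjusted p under 0.05 being 0 for all at 1 month and, at 2 months, 1 endothelial, 2 macrophage and 2 erythroid markers. Of 6 tested thymocyte markers, Themis was higher by 1.13 in cardioMRKO hearts at 2 months (adjusted p = 0.0271).

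The last comparison asked whether the genotype difference changed from 1 to 2 months, which is the same quantity as the difference between the age effects of the genotypes. None of the 50 members was called by limma, where 0.748% of all genes were. Of the 50, 2 had an unadjusted p under 0.05, as had 2264 of all 20055 genes, so the members did not exceed the genes at large. None was called without either pair of arrays. The 2 were Tyms, with -0.51 (95% confidence interval -1.0 to -0.02, adjusted p = 0.419), and Ccne1, with -0.48 (-0.93 to -0.03, adjusted p = 0.408). The median over the replication members was -0.16 and over the mitosis members -0.09, against -0.10 over all genes tested. By role, the smallest p-values belonged to Mcm6 (-0.34), Aurka (-0.33), Ube2c and Nusap1 (given above), Cenpf (0.25), Pimreg (0.52) and Ccna2 (-0.50), none of them under 0.05. Racgap1 had the smallest p of the mitosis members, with -0.96 (-1.94 to 0.02, adjusted p = 0.455), and its flox 1-month replicate 1 is the low array described above. The sign for Cdk1, Mcm2 and Mki67 turned when single arrays were left out. For Mki67 the difference was 0.04 (-0.83 to 0.91), for Top2a 0.53 (-0.42 to 1.48), for Cdk1 -0.07 (-1.01 to 0.87), for Mcm2 -0.04 (-0.47 to 0.39) and for Pcna -0.46 (-0.93 to 0.02). Each of these intervals includes 0, and their widths set the size of a shift that 4 arrays a group could have missed.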

How the data were processed

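Each of 16 mouse heart RNA samples (500 ng, per the labels' protocols) was hybridised to its own 1-colour Agilent array. The authors deposited scanner output with a processed intensity per spot, background-subtracted by Feature Extraction. Its version is 12.0.0.7 per the file headers and 9.5 per the submitters' processing notes. Outlier spots were left out, spots of a probe were averaged, and log2 intensity was centred on each array's 75th percentile. Probes were named through unversioned RefSeq accessions (GRCm38.p6): 28223 had a symbol and 12951 did not. A probe was kept when well above background on all 4 arrays of a group, and the brightest such probe stood for its gene. The deposited series value table equals the processed intensity.

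A mean per group was fitted to all 16 arrays with limma 3.58.1 in R 4.3.3 (lmFit, eBayes), p-values being adjusted over all 20055 genes. On simulated data for the age comparison in flox hearts (19730 genes) the fit recovered 86% of changes of size 2 and 60% of changes of size 1 on the log2 scale. Direction was not checked for size 1. The changes were planted in far fewer genes than were called in the real comparison, so these rates do not give its power. The members, lists and motifs were chosen with earlier results of these data known. Named are every called member, in each comparison and role the member with the smallest p, and Mki67, Top2a, Cdk1, Pcna and Mcm2 throughout. Of the other lists, the called genes are named (up to 4 by smallest p) or the 1 with the smallest p; Gmnn, and the probes and arrays singled out, were chosen after their values were seen. Alternatives tried were quantile normalization, normexp background correction with an offset of 50, other probe filters, the mean of probes, array weights, subsets of arrays, and the replicate number as a block. The number of arrays and, for dim probes, the background limit the precision.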

Additional observations from a re-analysis of the deposited data

Results flagged for a closer look

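In 215 groups of 4 arrays examined (203 of single members and 12 of class medians), 3 held an array far from the other 3 by Dixon's criterion, where chance gives about 1 in 20, and all 3 were in the flox 2-month group. Mcm5 on flox 2-month replicate 4 was at -0.31, above the next array at -0.84. Mcm7 on the same array was at 1.88, with the next at 1.46. E2f1 on flox 2-month replicate 3 was at -4.01, with the next at -4.86. Replicate 4 is the array with low spike-in signal.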

How the results depend on the processing

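Of 3753 values recomputed under 26 alternatives, 3632 kept their direction and side of the threshold (or, for counts and medians, moved little), 71 lost a call, 6 of the values named in the text gained one, 11 counts or medians moved and 33 single-gene values changed sign. Over all members, named for that comparison or not, 32 calls were gained and 71 lost. In the age comparisons, leaving out 1 array gave 39 to 42 called members in flox and 41 to 47 in cardioMRKO hearts, with medians of the mitosis members from -1.83 to -1.56 and from -2.01 to -1.54 and of the replication members from -0.93 to -0.80 and from -1.07 to -0.88. Normexp background correction moved these medians nearer 0, to -0.67 and -1.13 for mitosis and -0.34 and -0.68 for replication members in flox and cardioMRKO hearts, with 30 falls in flox and 46 in cardioMRKO hearts. It also took away 13 calls and gave -0.0088 for the mitosis median between genotypes at 2 months, -0.085 for Hells and -0.19 for Kif2c in that comparison, and -0.092 for Pimreg and -0.14 for Top2a in the change of the genotype difference. When each probe had to be above background on every array, the replication median in flox hearts was -0.69.

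Between genotypes, array weights called 1 member at 1 month (Cenpf). At 2 months quantile normalization called 2, the fit of only the 8 arrays called 0, and leaving out 1 array called 1 to 5. Without flox 1-month replicate 4 and cardioMRKO 1-month replicate 1 together, the replication median at 1 month was 0.15 and the Top2a difference was -0.015. In the change of the genotype difference, single-array omissions gave -0.33 to 0.18 for Cdk1, -0.17 to 0.039 for Mcm2 and -0.18 to 0.29 for Mki67. Cdk1 was at 0.0075 with quantile normalization, 0.10 without the low spike-in arrays and 0.20 without the airway-high 1-month arrays, when Mcm2 was at 0.044. The age difference of Pcna in flox hearts was -0.039 with quantile normalization, -0.016 with normexp, -0.038 with array weights, -0.051 without the low spike-in arrays, -0.049 without the airway-high 1-month arrays, and -0.051 to 0.12 with 1 array left out. The cause of these changes was not tested.

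The replicate numbers share only the position on the slide, and the deviations of same-numbered arrays correlated from -0.31 to 0.36, so they were not taken to pair the samples. The replicate block gave 41 called members in flox and 46 in cardioMRKO hearts and 0 and 1 calls between genotypes at 1 and 2 months. Not every array correlated best with its own number. With 1 slide per group, no fit could separate slide from group, and the number of arrays and dim signals near background limit the small differences.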
